A study of Mus musculus with 4 samples.

Results

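The feedback genes of STAT signalling were followed across helper T cells with and without STAT4 or STAT6. The 7 genes are Cish, Socs1, Socs2, Socs3, Pim1, Pim2 and Ptpn2. They were taken as all probe sets whose platform annotation gives one of these symbols alone, which gave 18 probe sets of 7 genes among 18193 genes on the array. The study asked how STAT4 and STAT6 direct transcription in the course of helper T cell differentiation, and its expression data are 4 mouse Affymetrix arrays, 1 per group. Naive CD4+ T cells were sorted from spleen and lymph nodes, activated through CD3 and CD28 for 3 days, kept in interleukin-2 (50 U/ml) for 4 days and restimulated through CD3 and CD28 for 2 h. Th1 wild type cells (C57BL/6J) and Th1 STAT4-deficient cells (C57BL6-STAT4<tm1>) received interleukin-12 at every step (20, then 10, then 20 ng/ml) and an anti-IL-4 antibody during activation. Th2 wild type cells (C57BL/6J) and Th2 STAT6-deficient cells (B6.129S2©-STAT6<tm1Gru>/J) received interleukin-4 (10 ng/ml at every step) and an antibody to interferon gamma during activation. Interleukin-2 and restimulation were therefore common to all groups, and the knockout cells received the same polarizing cytokine as their wild type. The age and number of the mice, whether cells were pooled and whether the 2 wild type samples came from the same mice are not given in the sources used here.

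Cytokine receptors signal through JAK kinases, which phosphorylate STAT factors, and activated STATs switch on genes that in turn damp the signal. CIS (encoded by Cish) and the SOCS proteins bind phosphorylated receptors or JAKs through an SH2 domain and recruit a ubiquitin ligase through their SOCS box. SOCS1 and SOCS3 can also block JAK activity directly through a kinase inhibitory region. PIM1 and PIM2 are serine/threonine kinases induced by the same STATs, and they support growth and survival rather than inhibit the receptor. TC-PTP (encoded by Ptpn2) is a phosphatase that removes phosphate from JAKs and STATs. In T cells, Cish and Socs2 are known targets of STAT5 downstream of interleukin-2, Socs3 of STAT3, and Socs1 of interferon and interleukin-4 signals.

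Levels are deposited log2 expression values, so a difference of 1 is 2-fold. With 1 array per group, no value has a replicate error, no test was possible and the differences describe single samples. A gene was called higher or lower where its main probe set, the one with the highest mean over the arrays, differed by at least 2-fold and lay at or above 5.82, the median of the whole table, on the brighter array. The arrays correlated with r from 0.92 to 0.96 over all probe sets. Stat4 read 11.45 in Th1 wild type and 9.20 in Th1 STAT4-deficient cells, and Stat6 read 10.93 in Th2 cells with the gene intact and 10.92 in those from the STAT6 knockout. Whether these probes lie in the deleted parts is not known here. The actin control at its 3′ end exceeded its 5′ end by 2.08 on the STAT6-deficient array, against 0.32 to 0.85 on the others. Of 8 T cell markers 7 were measured, and all 7 reached the level minimum on every array. Their summed level (log2 of the sum of unlogged values) was 15.19 to 15.38. The summed level of 7 myeloid and dendritic markers was 8.38 without and 9.53 with STAT6 in Th2 cells, and 8.81 with and 8.72 without STAT4 in Th1 cells. That of 4 mast cell and basophil markers was 6.75, 8.81, 8.16 and 7.40 in the same order, that of 4 B cell markers ran from 7.07 to 7.84, that of 3 CD8 and NK markers was 7.38, 8.85, 8.09 and 7.68 in the order given, and that of 2 erythroid markers ran from 5.63 to 6.40. In Th2 cells 1 of the 4 mast cell and basophil markers reached the level minimum with STAT6 and 0 without it. That marker was Cpa3, at 8.64 with STAT6 and 4.90 without it, while Kit rose from 3.95 to 5.69, under the minimum. Of the 7 myeloid and dendritic markers 4 reached it with STAT6 and 2 without. Adgre1 read 8.26 and 5.92 there, and Csf1r 7.07 and 7.06. The part of RNA quality or of other cells in the results below was not tested.

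RefSeq promoter windows (GRCm38.p6, from 250 bases before a start to 50 bases from it) were found for 5 of the 7 genes, as 6 windows. They were searched on both strands for the half-sites TTC and GAA that STAT dimers recognise, 3 bases apart (TTCNNNGAA) or 4 bases apart (TTCNNNNGAA), the spacing that STAT6 favours. The sequences below are shown because they hold every match found in the SOCS family windows. Cish and Socs3 had the 3-base spacing. Socs1 instead had GAAA, any 2 bases and GAAA again, the core of elements bound by interferon regulatory factors, a motif added after the sequence was seen. Capitals mark the matches, and each sequence reads 5′ to 3′ on the gene's strand. The stretches lie at chr9:107296655-107296684 (plus strand, Cish), chr11:117969502-117969531 (minus strand, Socs3) and chr16:10785557-10785656 (minus strand, Socs1).
Cish: agttTTCCTGGAAagTTCTTGGAAatctgt
Socs3: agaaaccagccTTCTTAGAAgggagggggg
Socs1: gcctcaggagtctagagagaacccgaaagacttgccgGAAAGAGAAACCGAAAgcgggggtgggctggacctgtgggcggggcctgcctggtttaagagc

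The Cish window held 2 copies of TTCNNNGAA, at bases 1 to 9 and 12 to 20 counted from the annotated start, and the Socs3 window held 1, at bases -154 to -146. Of all 32851 windows 8.3% held TTCNNNGAA at least once, and 0.457% held it 2 or more times. The 2 Pim1 windows and the Pim2 window held neither spacing, and no window of these genes held TTCNNNNGAA, which 6.95% of all windows held. The Socs1 window held the paired GAAA motif 2 times, at bases -83 to -74 and -77 to -68, overlapping each other. It occurs in 3.44% of all windows, 2 or more times in 0.225%. A match describes the letters alone, and no binding was measured in these files. Socs2 and Ptpn2 were not matched.

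Socs3, the inhibitor best known for restraining interleukin-6 family receptors, had much lower signal without either STAT. Its main probe set (1455899_x_at) read 11.17 with STAT4 and 8.42 without it in Th1 cells, and 11.77 with STAT6 and 9.17 without it in Th2 cells. Both wild type arrays were thus high and both knockout arrays low. The level was 6.72-fold lower in STAT4 loss and 6.08-fold lower in STAT6 loss. Only 0.484% of the 12608 genes at the level minimum were as far below wild type or further in STAT4 loss, and 2.16% of 11490 in STAT6 loss. In these bulk samples, fewer cells that express the gene and less RNA per cell cannot be told apart.

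The other Socs3 probe sets differed in the same direction, by a smaller step in Th1 cells. The probe set 1416576_at read 10.61, 9.0, 11.41 and 8.76 in Th1 cells with and without STAT4 and Th2 cells with and without STAT6. The probe set 1456212_x_at read 10.39, 8.66, 11.21 and 8.62 in that order. Their folds below wild type were 3.06 and 3.32 in STAT4 loss and 6.27 and 5.99 in STAT6 loss. The size in STAT6 loss therefore did not depend on the probe set, while in STAT4 loss the main probe set gave the larger fold. Its suffix _x marks probes that may also match other transcripts, as does that of 1456212_x_at. Which knockout was lowest differed too: Th1 STAT4-deficient on the main probe set and Th2 STAT6-deficient, by 0.24 and 0.04, on the others.

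Socs1, an inhibitor of interferon and interleukin-4 receptor signalling, was lower without STAT6 and near wild type without STAT4. Its single probe set (1450446_a_at) read 10.50 with STAT4 and 10.67 without it in Th1 cells, and 11.63 with STAT6 and 9.51 without it in Th2 cells. The Th2 wild type array was the highest and the Th2 STAT6-deficient array the lowest, with the Th1 arrays between them. The level was 4.35-fold lower in STAT6 loss, where 3.86% of genes were as far below wild type or further. In STAT4 loss the difference was 0.16, and it turned to -0.07 when each array was centred on its median. Of 12 interferon-stimulated genes measured, 11 were called higher and none lower in STAT6 loss, with a median difference of 4.55. Among all genes 7.01% were called higher there. Whether this has any link to the Socs1 level was not tested.

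Socs2, known as the inhibitor of growth hormone signalling and a STAT5 target in T cells, stood in opposite directions in the losses. Its main probe set (1449109_at) read 11.02 with STAT4 and 11.87 without it in Th1 cells, and 12.98 with STAT6 and 11.90 without it in Th2 cells. Each knockout thus lay between the wild types, and the knockouts differed by 0.03 from each other. Without STAT6 the level was 2.12-fold lower. Without STAT4 it was 1.79-fold higher, under the limit. Both calls depended on the scaling. The STAT6 difference of -1.08 was -0.97 after quantile normalization, -0.97 after loess and -0.95 after median centring, all under the limit. The STAT4 difference of 0.84 was 1.09, 1.06 and 0.60 under the same scalings and 1.23 on centring by the spiked hybridization controls.

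Socs2 had 6 probe sets, and they did not all follow the main one. The bright 1418507_s_at read 10.35, 11.31, 12.01 and 10.77 in Th1 cells with and without STAT4 and Th2 cells with and without STAT6, and gave the main probe set's directions. The probe sets 1438470_at and 1442586_at were at 0.87 and 0.74 in STAT4 loss but at only -0.25 and 0.08 in STAT6 loss. By contrast 1446085_at gave 0.24 in STAT4 loss and -1.74 in STAT6 loss. It read 7.54 with STAT6 and 5.80 without it, the second value under the level minimum. The probe set 1438470_at was under the minimum in Th1 wild type cells, at 5.48. The last, 1441476_at, stayed under the level minimum on every array, at 3.67 to 4.21. All 5 probe sets that reached the minimum were above wild type in STAT4 loss, and 4 of them were below it in STAT6 loss.

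Cish, the feedback inhibitor induced by interleukin-2, had the smallest range over the arrays of the 7 main probe sets. Its single probe set (1448724_at) read 13.17 with STAT4 and 12.84 without it in Th1 cells, and 13.39 with STAT6 and 12.94 without it in Th2 cells. That range was 0.55. The difference was -0.33 in STAT4 loss and -0.45 in STAT6 loss, and 22.1% and 42.1% of genes were as far below wild type or further. The first became 0.04 after quantile normalization and 0.06 on centring by the spiked controls, so it has no settled direction. The STAT motifs shown above for Cish and Socs3 thus belong to the genes with the smallest and the largest range on their main probe sets.

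**Figure D1:**
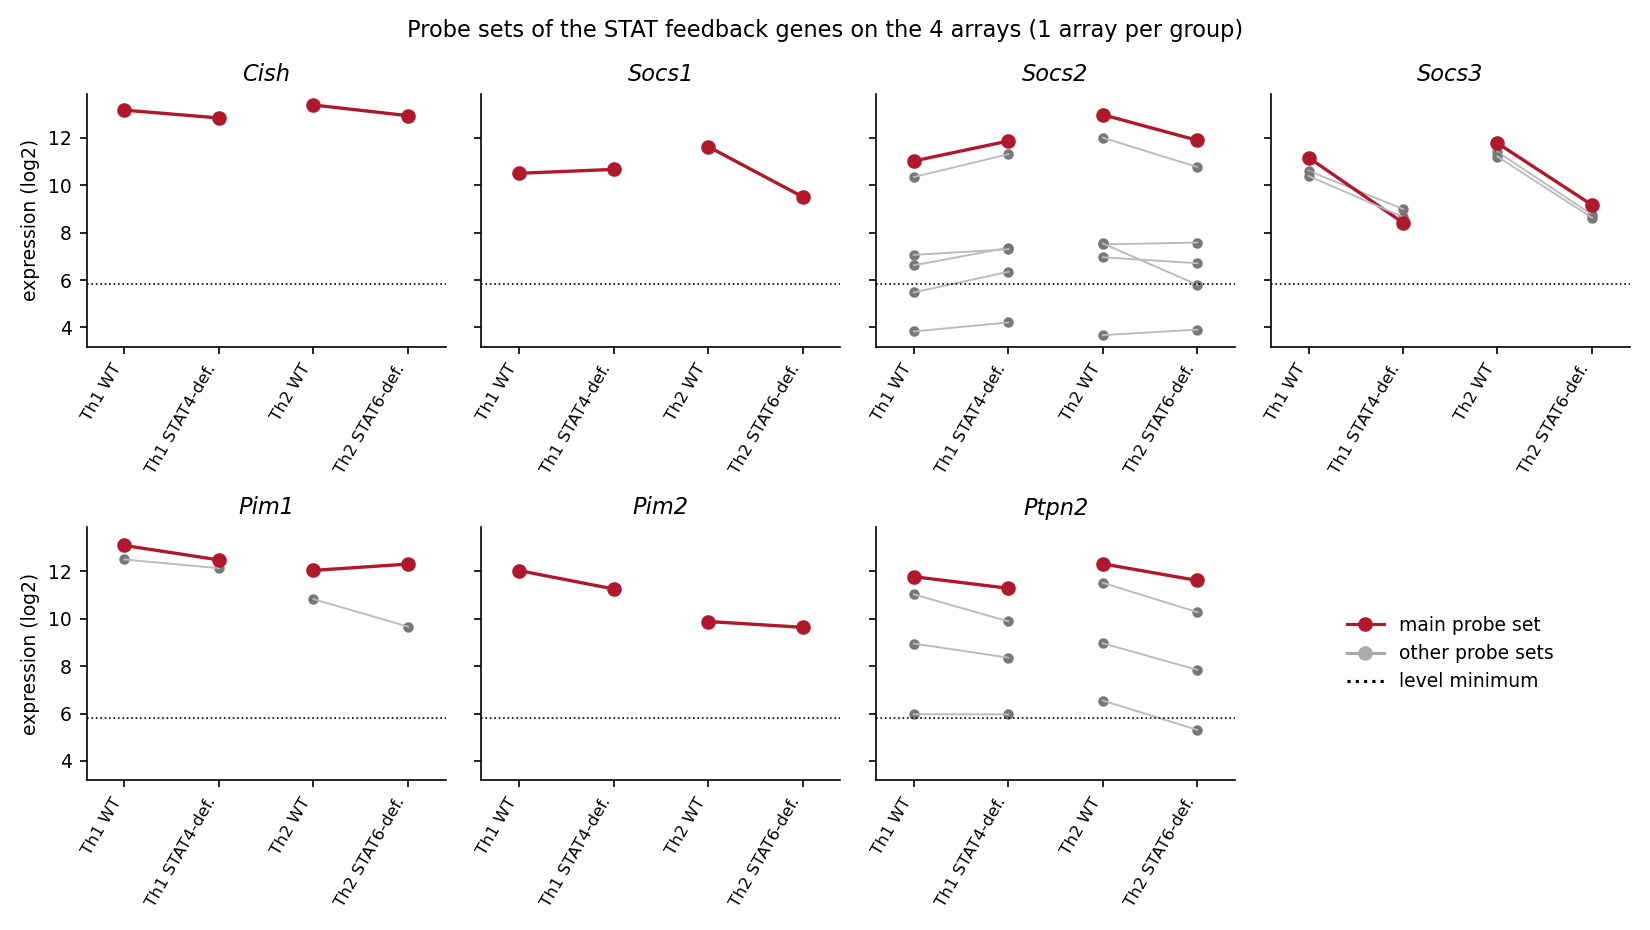
Log2 expression of every probe set of the 7 genes (1 panel per gene) on the 4 arrays, with the main probe set in red, other probe sets in grey, lines joining each knockout to its wild type and the level minimum of 5.82 dotted. Socs3 steps down in both pairs, Socs1 only in the Th2 pair, and Cish stays between 12.84 and 13.39.

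The PIM kinase genes were both highest in wild type Th1 cells. Pim2 read 12.03 with STAT4 and 11.26 without it in Th1 cells, and 9.88 with STAT6 and 9.64 without it in Th2 cells on its single probe set (1417216_at). Both Th1 arrays were above both Th2 arrays. The Th1 wild type level was 4.43-fold above the Th2 wild type level, a step that 1.29% of 12111 genes equalled or exceeded. Among the knockouts the Th1 level was 3.07-fold above. The differences in the losses were -0.77 (STAT4) and -0.24 (STAT6). The first passed the limit only after median centring, at -1.01, and the second turned to 0.03 after quantile normalization.

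The probe sets of Pim1 disagreed in STAT6 loss. The main one (1435458_at) read 13.09 with STAT4 and 12.48 without it in Th1 cells, and 12.04 with STAT6 and 12.31 without it in Th2 cells. The other (1423006_at) read 12.50, 12.13, 10.83 and 9.67 in that order. Th1 wild type cells were the highest on both. Without STAT6 they stood on opposite sides of wild type, at 0.27 and -1.16. Between the knockouts they gave 0.18 and 2.47 (Th1 minus Th2). The wild types differed 2.07-fold on the main probe set and 3.19-fold on the other. The main call between the wild types was lost with the hybridization controls, at 0.68. For every gene, both the STAT6 loss and the knockout comparison use the array with the actin 3′ minus 5′ difference of 2.08. Whether that has any link to the Pim1 disagreement was not tested.

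Ptpn2 was below wild type in both losses on its main probe set, without reaching 2-fold. That probe set (1438562_a_at) read 11.77 with STAT4 and 11.29 without it in Th1 cells, and 12.32 with STAT6 and 11.62 without it in Th2 cells. The differences were -0.49 and -0.70. The probe set 1417140_a_at read 11.03, 9.89, 11.52 and 10.28, which is 2.20-fold and 2.36-fold lower in STAT4 loss and STAT6 loss. The remaining probe sets, 1425197_at and 1425198_at, were at -0.60 and -0.00 in STAT4 loss and at -1.12 and -1.24 in STAT6 loss. In STAT6 loss 3 of the 4 probe sets were thus past 2-fold as deposited and the brightest was not. After quantile normalization 1417140_a_at was at -1.07, while 1425197_at and 1425198_at were under the limit, at -0.78 and -0.92. The probe set 1425198_at was dim, at 6.55 with STAT6 and 5.31 without it, the second value under the level minimum.

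In STAT4 loss, 1 of the 7 genes (Socs3) was called lower and none higher. Over all genes at the level minimum 11.5% were called, 5.34% lower and 6.18% higher. In STAT6 loss 3 (Socs1, Socs2 and Socs3) were called lower and none higher, against 26.5% of all genes called, 19.5% lower and 7.01% higher. The median difference of the 7 genes was -0.49 in STAT4 loss, beside 0.13 for all genes, and -0.70 in STAT6 loss, beside -0.30. Relative to the median gene, Socs3 was at -2.88 and -2.31, Socs1 at 0.04 and -1.82, and Socs2 at 0.72 and -0.78. Counted by probe set, 4 of the 17 at the level minimum were past 2-fold below wild type in STAT4 loss and 11 of 17 in STAT6 loss. Over all probe sets of 1 gene at the level minimum, 5.75% were as low in STAT4 loss and 20.4% in STAT6 loss. These counts weigh genes with several probe sets more, and they hold for the values as deposited. After quantile normalization 4 of the 11 in STAT6 loss were under the limit. They were Pim1 1423006_at (-0.94), Ptpn2 1425197_at (-0.78) and 1425198_at (-0.92), and Socs2 1449109_at (-0.97). As a guide to probe behaviour, the differences of probe sets of one gene scattered with an SD of 0.48 in STAT4 loss and 0.65 in STAT6 loss over all genes with several. This covers no variation between mice or cultures.

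**Figure D2:**
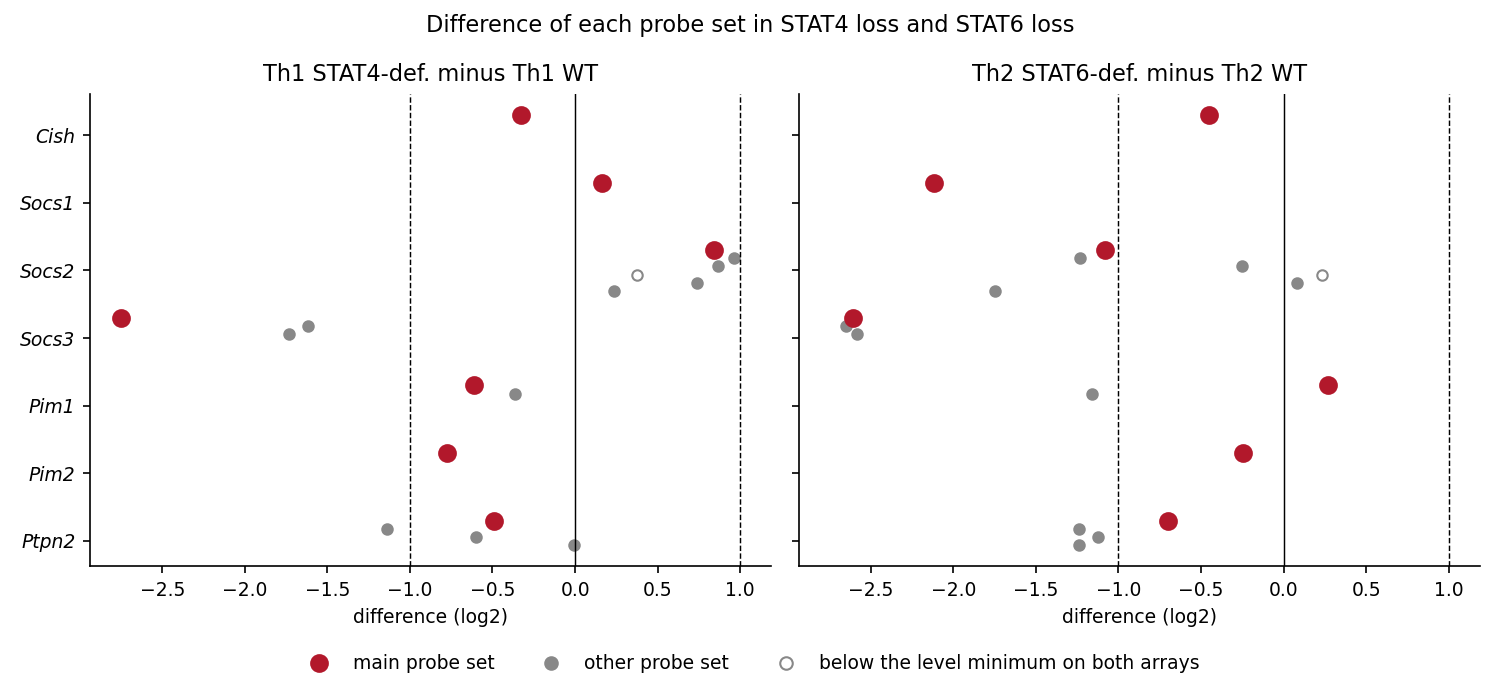
Log2 difference from wild type of each probe set in STAT4 loss (left) and STAT6 loss (right), 1 row per gene, with dashed lines at 2-fold and probe sets of a gene offset vertically. All 3 Socs3 probe sets lie left of the 2-fold line in both panels, while the Pim1 probe sets stand on opposite sides of 0 in STAT6 loss.

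Between the wild types, Pim1 and Pim2 were called higher in Th1 cells, and Socs1 and Socs2 higher in Th2 cells. This comparison shares its arrays with the losses. Over all genes 33.5% were called, 8.14% higher in Th1 and 25.4% higher in Th2 cells, with a median of -0.37 (Th1 minus Th2). Socs2 was 3.87-fold and Socs1 2.19-fold higher in Th2 cells. The Socs1 call was lost after quantile normalization (-0.84) and loess (-0.77), and the mean of all Socs2 probe sets gave -1.05. Socs3 (-0.61), Ptpn2 (-0.54) and Cish (-0.22) were under the limit.

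Between the knockouts, where both the culture and the missing STAT differ, Socs1 and Pim2 were called higher in Th1 STAT4-deficient than in Th2 STAT6-deficient cells and none lower. Over all genes 22.9% were called, 12.6% higher and 10.3% lower. Socs1 was 2.23-fold higher there, the reverse of its order in the wild types. After median centring its difference of 1.16 was 0.78, under the limit. Socs2, 3.87-fold apart in the wild types, was within 1.02-fold in the knockouts on the main probe set. Between the knockouts 1446085_at was 2.83-fold and 1418507_s_at 1.45-fold higher in Th1 cells. The first uses the Th2 STAT6-deficient value of 5.80, under the level minimum. Cish, Socs2, Socs3, Pim1 and Ptpn2 were under the limit on their main probe sets. Median centring brought Socs3 to -1.12.

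**Figure D3:**
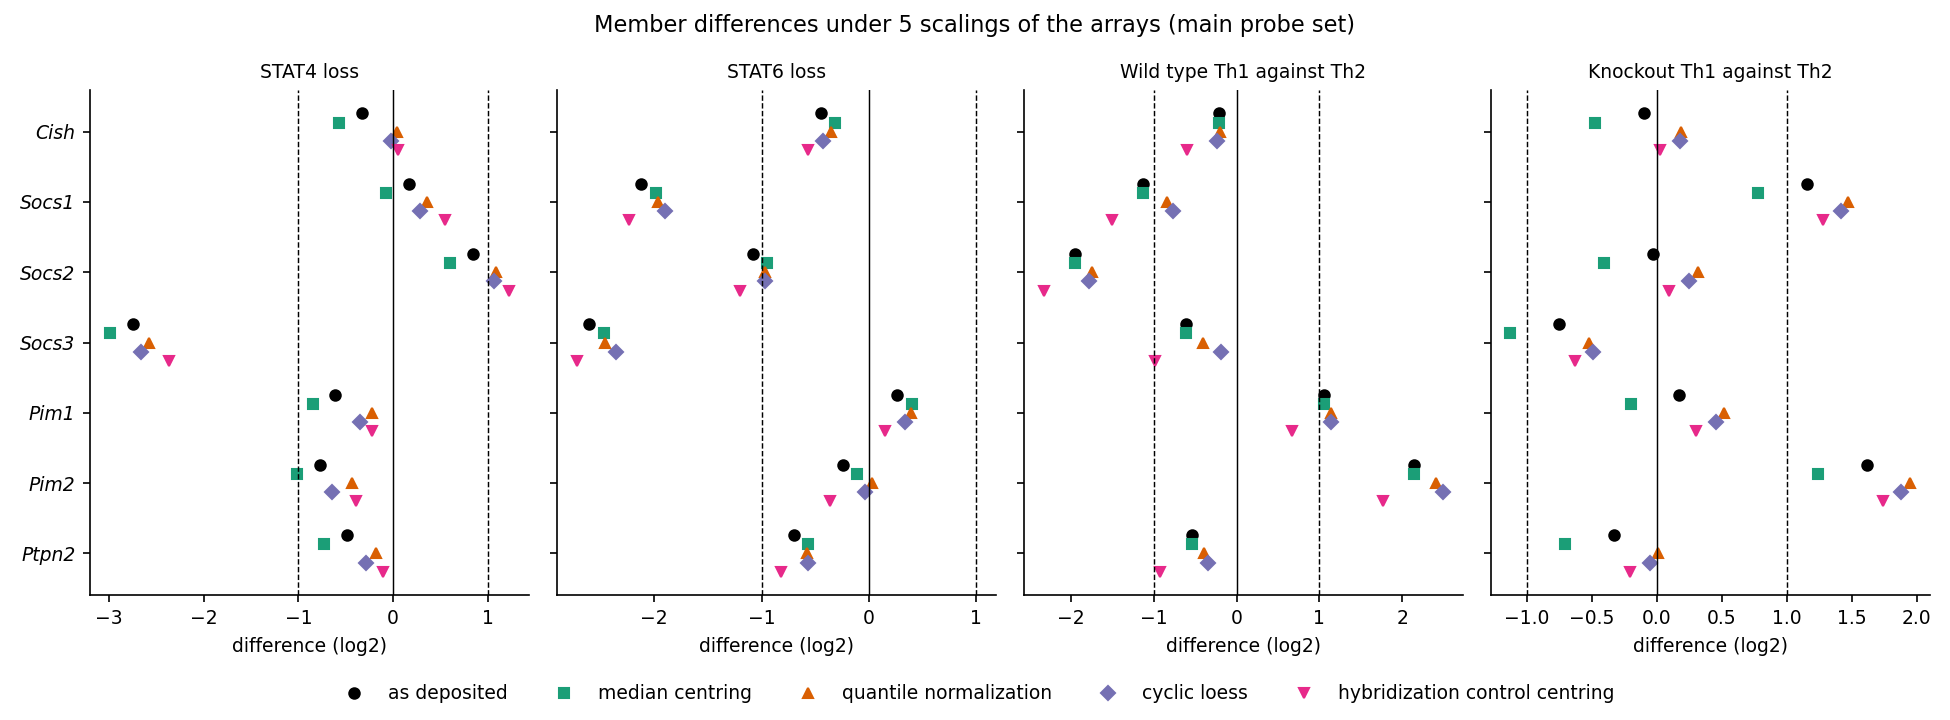
Log2 difference of the main probe set of each gene in the 4 comparisons, as deposited and after 4 other scalings of the arrays, with dashed lines at 2-fold. Socs3 stays beyond 2-fold in both losses, Socs1 in STAT6 loss and Pim2 in both Th1 against Th2 comparisons under every scaling drawn, while Socs2 crosses the line in both losses.

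Among 5 relatives at the level minimum, 1 was called in each loss. Socs7 was called higher in STAT6 loss (1.43, another probe set at 0.26), from 8.05 to 9.48. Pim3 was called lower in STAT4 loss (-1.33, another probe set at -0.69), from 12.73 to 11.39. The Pim3 call held under 2 of the 4 other scalings. Socs4, Socs5 and Socs6 were under 2-fold in both losses on their main probe sets, at -0.63 to 0.12 for STAT6 and -0.53 to 0.06 for STAT4. Another Socs4 probe set was past the limit in STAT4 loss, at -1.24. Of 10 other inhibitors of JAKs and STATs none was called in STAT4 loss. In STAT6 loss the ubiquitin-like protease gene Usp18, an interferon feedback gene, was called higher, at 13.38 against 10.14, as was the adaptor gene Sh2b3 (1.56). The others are the phosphatase genes Ptpn1, Ptpn6, Ptpn11 and Ptprc and the STAT inhibitor genes Pias1 to Pias4. On their main probe sets they lay between -0.65 and 0.39 in STAT6 loss. Other probe sets of Pias1 and Ptpn6 reached 1.42 and 1.06 there. Of 6 genes for partners of SOCS and VHL box ligases, the RING protein gene Rbx1 (-1.44) was called lower in STAT6 loss. Its single probe set was dim, at 6.85 with STAT6 and 5.42 without it, the second value under the level minimum. Elob, Eloc, Cul5, Cul2 and Rnf7 were under the limit in both losses as deposited on their main probe sets, with Cul5 at 0.94 in STAT4 loss. Other probe sets passed it, with Eloc at -1.23 in STAT4 loss, and Cul5 at -1.25 and Elob at 1.08 in STAT6 loss.

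Upstream, 10 of 11 JAK and STAT genes were measured. Besides Stat4 itself none was called in STAT4 loss on the main probe sets. Stat3 was at -0.71 there, with another probe set at -1.21. In STAT6 loss Jak3, the kinase of the common gamma chain (-1.78), Stat3 (-1.20, another probe set at 0.79) and Jak1 (-1.10) were called lower and none higher. The share of all genes called lower in STAT6 loss was 19.5%. The Jak1 call held under 1 of the 4 other scalings. Stat5a and Stat5b, which carry interleukin-2 signals to Cish and Socs2, were at 0.77 and 0.46 there, with a further Stat5a probe set at -1.16. Jak2, Tyk2 and Stat2 were at 0.44, 0.23 and 0.61.

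Of 16 receptor chains measured, 2 were called higher and 4 lower in STAT4 loss, led by Il12rb2 (-3.10) and Ifngr2 (1.97). In STAT6 loss 4 of 15 were lower and none higher, led by Ifngr2 (-2.74), Il4ra (-2.53) and Il7r (-2.13). With the hybridization controls these counts were 2 and 1 in STAT4 loss, and 6 lower in STAT6 loss. As deposited, 5.34% of all genes were lower and 6.18% higher in STAT4 loss, and 19.5% and 7.01% in STAT6 loss. Of the cytokine genes, 2 were called higher and 4 lower of 11 at the level minimum in STAT4 loss, and 4 higher and 4 lower of 13 in STAT6 loss. With the hybridization controls the latter were 2 higher and 6 lower. Il10 was at -6.80 in STAT4 loss and -7.26 in STAT6 loss, and Il21 at -7.63 and -5.88 (-2.49 and -4.19 on another probe set). Il6 was under the level minimum in the Th1 arrays and at -7.21 in STAT6 loss. Il2, which drives STAT5, was at -0.14 in STAT4 loss and 2.31 in STAT6 loss.

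Of 16 other genes known as STAT targets, 8 were called lower and 1, Irf1, higher in STAT4 loss, and 6 lower and 2 higher in STAT6 loss. Other scalings gave 5 to 9 lower in STAT4 loss and 5 to 8 in STAT6 loss. The shares of all genes called lower as deposited were 5.34% in STAT4 loss and 19.5% in STAT6 loss. Bcl3 (-1.57 and -1.69), Nfil3 (-1.38 and -3.49), Gadd45g (-2.45 and -1.11), Prdm1 (-1.43 and -5.48) and Hlx (-2.26 and -1.93) were called lower in both losses as deposited. Under the 4 other scalings the Gadd45g call in STAT6 loss held in 1 and the Nfil3 call in STAT4 loss in 3. Of the 9 genes for PIM substrates and translation factors, the cell cycle inhibitor gene Cdkn1a (-1.37) was called lower in STAT4 loss, a call that held under 2 of the 4 other scalings. In STAT6 loss the death-promoting Bad (-1.30) and the translation repressor Eif4ebp1 (-1.21) were called lower, calls that held under 3 and 2 of the 4 other scalings. The transcription factor gene Foxo3 (1.32) was called higher.

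**Figure D4:**
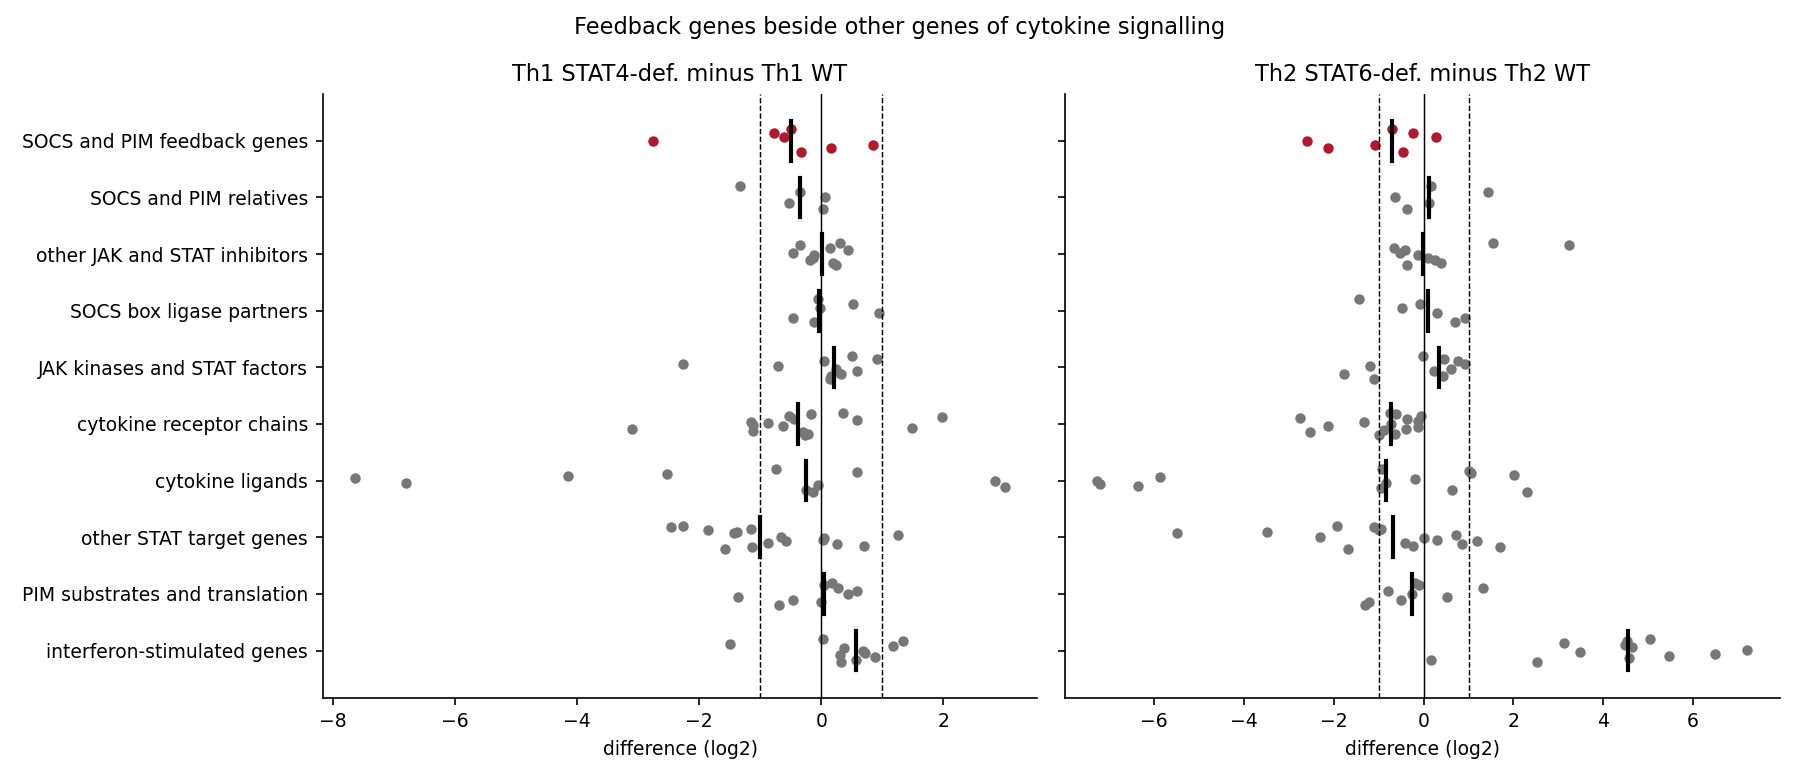
Log2 difference from wild type of the 7 feedback genes (red) and of 9 lists of related genes (grey, genes at the level minimum) in STAT4 loss (left) and STAT6 loss (right), with black bars at list medians and dashed lines at 2-fold. The feedback genes have medians of -0.49 and -0.70, and interferon-stimulated genes stand at a median of 4.55 in STAT6 loss.

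Each of the 6 genes that ranged over at least 1 log2 unit was set beside the genes with the most similar profile over the 4 arrays, by the root mean square distance after centring each gene on its mean, among 13147 genes. With 4 arrays many genes can match closely by number alone. Nearest to Socs3 were Crem (0.23), Ctla2a (0.24) and Dgat1 (0.24), all high in both wild types and low in both knockouts. Its distances were the largest of the 6 genes. Nearest to Socs1 were Smpd1, Slc16a3 and Cavin3 (0.04 to 0.06), and nearest to Socs2 were Zfp61, Sel1l and E2f6 (0.05 to 0.06). Nearest to Pim2 were Prrx2, the T cell kinase gene Txk and the potassium channel gene Kcna3 (0.08 to 0.10), nearest to Pim1 Rab6b, Ddx21 and Nmd3 (0.03 to 0.04), and nearest to Ptpn2 Ptprk, Ppp2ca and Ccng1 (0.02 to 0.03). Cish ranged over too little to be set beside others.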

How the data were processed

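The authors deposited log2 expression values per probe set, made with RMA (robust multi-array average) per the submitters' processing notes. No version is given there, and the 4 arrays do not share 1 distribution. Of 45101 probe sets 64 were controls. The platform annotation gave 34945 others 1 gene, 932 several and 9160 none, and symbols were updated through RefSeq (GRCm38.p6), which matched 34741. The main probe set of a gene was the one with the highest mean. The members, gene lists and limits were chosen with earlier results of these data known. Named besides the 7 genes were all members of 4 lists (relatives, other inhibitors, ligase partners, JAKs and STATs), up to 4 called members per comparison of the other lists with the largest difference, and the 3 nearest genes of each member. Il2 and Irf1 were named outside this rule, after their values were seen. The 7 measured reference genes had a median of -0.23 in STAT4 loss and -0.24 in STAT6 loss. Actb (-1.52, another probe set at 0.47) and Tubb5 (-2.21, another probe set at -0.85) were called lower in STAT6 loss. Quantile and cyclic loess scaling used limma 3.58.1 in R 4.3.3. The calling code was run on simulated arrays with planted changes well past the limit and noise below the scatter between probe sets. That run checks the code alone and cannot show how calls near the limit behave.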

Additional observations from a re-analysis of the deposited data

Results flagged for a closer look

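Socs1, Socs2 and Pim1 are listed because their main probe sets stood on opposite sides of wild type in the losses; the difference between the losses was not tested. STAT6 loss minus STAT4 loss was -2.28 for Socs1 (-2.12 against 0.16), -1.92 for Socs2 (-1.08 against 0.84) and 0.88 for Pim1 (0.27 against -0.61). The other Pim1 probe set was below wild type in both losses, at -1.16 and -0.37. With 1 array per group no spread within a group could be examined.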

How the results depend on the processing

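Each count of called genes was recomputed with 4 scalings, 2 level minima, a 1.5-fold limit and 2 other rules for a gene's probe set. STAT4 loss gave 1 lower; this was 2 after median centring (with Pim2), 2 with the widest-ranging probe set (with Ptpn2) and 3 at 1.5-fold. It gave 0 higher; this was 1 (Socs2) after quantile normalization, loess, hybridization control centring and at 1.5-fold. STAT6 loss gave 3 lower. These were 2 (without Socs2) after median centring, quantile normalization and loess, 4 at 1.5-fold (Ptpn2 added), 5 with the widest-ranging probe set (Pim1 and Ptpn2 added) and 3 with the mean of probe sets, where Ptpn2 stood in place of Socs2. The wild types gave 2 lower in Th1, which was 1 after quantile normalization and 1 after loess (Socs2), and 3 at 1.5-fold (Socs3 added). The wild types gave 2 higher, which was 1 with the hybridization controls (Pim2). The knockouts gave 2 higher, which was 1 after median centring (Pim2), 3 with the mean of probe sets and 3 with the widest-ranging one (Pim1 added), and 0 lower, which was 1 (Socs3) after median centring and at 1.5-fold. Of 168 recomputed member differences 146 kept their call and moved by less than the scatter between probe sets, 22 moved and no called one reversed. Promoter windows with a STAT motif numbered 2 with the 3-base spacing and 0 with the 4-base one. Scaling also set the split of all calls: 53.7% were higher in STAT4 loss as deposited, 24.8% after median centring, 46.6% after quantile normalization, 40.4% after loess and 87.5% with the hybridization controls, and in STAT6 loss 26.5%, 36.0%, 43.4%, 43.1% and 20.1%; for the wild types they were 24.3%, 24.9%, 45.2%, 41.2% and 8.89%, and for the knockouts 55.1%, 18.8%, 53.3%, 42.9% and 68.4%. The median gene moved with it, from 0.13 to 0.53 in STAT4 loss with the hybridization controls. The number of arrays limits every value. No paired analysis was possible because each group has 1 array, and no array could be left out.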
